A study of Bos taurus and Ovis aries and Capra hircus with 18 samples.

Results

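Skeletal muscle of adult cattle (Bos taurus) was set against skeletal muscle of adult sheep (Ovis aries), with 3 libraries, A, B and C, in each group. These 6 libraries belong to a series of 18 that holds brain and muscle of adult cattle, sheep and goat, untreated as far as the labels say. The 6 brain libraries of cattle and sheep were used to ask whether a species difference in muscle was unlike that in brain. The 3 goat muscle libraries give side values for a few genes. Genes were paired between the gene models of the 2 species, because the files give identifiers and no symbols. The pairing kept 13529 genes, out of 27607 gene models in cattle and 26478 in sheep, and 10064 of the pairs had enough reads in muscle to be tested. Of these, 3595 had an exonic length (the Length given for each gene model) within 1.2 times in both species. They carry most of what follows, since their own Lengths differ least between the species. As a set they still moved with the length correction. Their median log2 of cattle over sheep was 0.191 with it and -0.214 without it. The median of all genes tested was -0.0153 with it and -0.00911 without it.

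A pair rested on the lengths of exons and on gene order. CSRP3 shows how. Its merged exon blocks, in the order of the gene, measure 159, 140, 169, 133, 94 and 336 bases in cattle and 29, 140, 169, 133, 94 and 330 bases in sheep, so the inner blocks match to the base and only the ends of the model differ. Symbols were given to the cattle gene models by overlap of their position with a RefSeq annotation of another cattle build. Of the pairs, 11456 received one, and a few of these names may be wrong. The whole set had a median Length of 2346 bases in cattle and 1581 bases in sheep. Levels are given as reads per kilobase of the Length in that species per 1000000 of the scaled total (RPKM), computed here from the counts and listed in the order of libraries A, B and C. Differences are log2 of cattle over sheep ± standard error, so a positive value is a higher level in cattle. A gene was called when its adjusted p was below 0.05 and its log2 difference was at least 1 in size. Adjusted p values come from the quasi-likelihood test of edgeR over all genes tested, with Benjamini-Hochberg adjustment.

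The cattle muscle libraries held 40878387 to 53560617 counts and the sheep muscle libraries 43007347 to 46302643 counts, of which 71.7% to 75.4% fell in paired genes. Rank correlations between libraries (Spearman) were 0.978 to 0.984 within cattle, 0.984 to 0.987 within sheep and 0.857 to 0.876 between the species. Markers of skeletal muscle fibres summed to 28100 to 50200 RPKM in cattle muscle and 47800 to 58100 RPKM in sheep muscle, against 44.0 to 65.8 RPKM in cattle brain and 46.8 to 94.4 RPKM in sheep brain. The label of muscle therefore matches the defining markers, although the extraction text attached to the muscle samples speaks of brain as the frozen tissue. Brain markers summed to 2.52 to 3.0 RPKM in cattle muscle and 3.09 to 4.89 RPKM in sheep muscle. The labels give neither the muscle sampled nor breed, sex or exact age, and they do not say that the letters stand for separate animals. The p-values thus measure the spread between these libraries, and a difference between species cannot be told apart from a difference between the muscles sampled.

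Skeletal muscle is built of slow and fast fibres. Slow fibres burn fuel in their mitochondria and carry the slow myosin heavy chain MYH7, with its own troponins, light chains and calcium pump. Fast fibres carry MYH2, MYH1 or MYH4, rely more on glycogen and glycolysis, and use the fast set of troponins. The mix varies from one muscle of a body to the next, and it shifts with use, feeding and hormones.

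Cattle and sheep muscle differed in a large share of their genes. Of the 10064 genes tested, 1548 (15.4%) were higher in cattle and 1874 (18.6%) were higher in sheep by the call. Among the 3595 genes with Length within 1.2 times, 667 (18.6%) were higher in cattle and 529 (14.7%) were higher in sheep, 33.3% in either direction. Counts of members called in muscle in the lists below are to be read against these shares. The libraries of the species did not overlap in 66.7% of all genes tested (32.7% with cattle above and 34% with sheep above) and in 66.4% of the window (39.7% with cattle above and 26.6% with sheep above), so a gene that does not overlap is common here. The split between the directions moved with the scaling: 55.8% of the calls in this window were higher in cattle, against 49.9% when libraries were scaled by their totals alone, 44.7% when only the genes of the window were fitted and 33.8% without the length correction. Scaling by totals also moved the median of all genes from -0.02 to -0.127 on the log2 scale, so small differences in either direction are not firm.

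The length correction left a trend of its own. Where the cattle model was over 3 times as long as the sheep model, the median log2 difference was -0.61 over 514 genes and 35.0% were called higher in sheep. Where it was under 1/1.5 of the sheep model, the median was 0.47 over 158 genes and 31.6% were called higher in cattle. Inside the window the median was 0.19. Brain showed a trend of the same direction, with medians of -0.22, 0.28 and 0.04 in the same bins, and the difference between the tissues, in which the Length cancels, gave -0.29, 0.09 and 0.12. Genes outside the window are therefore named below with the factor by which their Length differed.

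**Figure D1:**
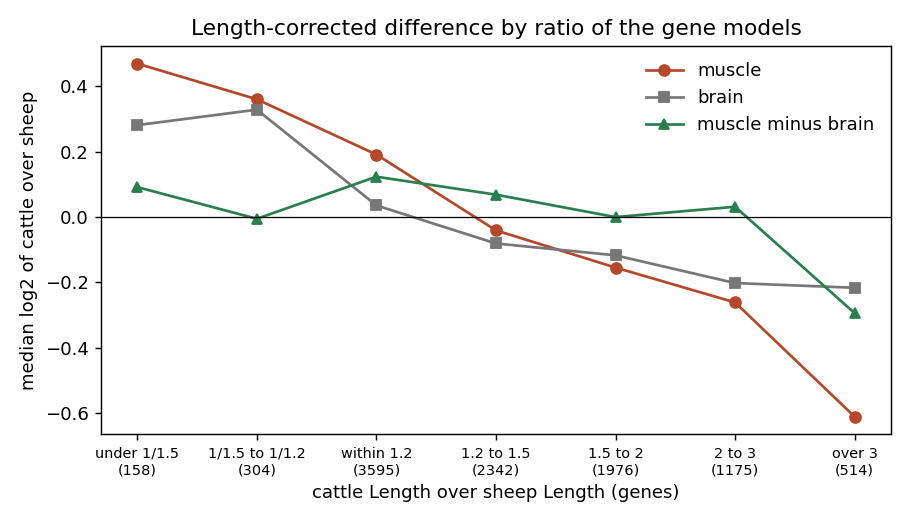
Median log2 difference of cattle over sheep (vertical axis) for genes binned by cattle Length over sheep Length (horizontal axis, number of genes in brackets), in muscle, in brain, and for muscle minus brain. The muscle median is 0.47 in the lowest bin, 0.19 within 1.2 times and -0.61 in the highest bin.

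The myosin heavy chain mRNAs served as a gauge of the fibre mix, and no fibre was typed. Over the sum of MYH7, MYH2, MYH1 and MYH4, the slow MYH7 took 53.9%, 18.3% and 31.5% in cattle muscle A, B and C, against 4.28%, 8.79% and 7.48% in sheep muscle A, B and C. MYH2, the oxidative fast chain, took 40.8%, 18.1% and 26.3% in cattle and 24.2%, 20.7% and 37.6% in sheep. MYH1, the intermediate fast chain, took 5.29%, 63.6% and 42.2% in cattle and 70.8%, 68.7% and 53.0% in sheep. The slow share was thus higher in each cattle library than in any sheep library, while the MYH2 and MYH1 shares overlapped. Cattle muscle A stood apart from the other cattle libraries, with the highest slow share and the lowest MYH1 share. In goat muscle A, B and C the MYH7 share was 23.1%, 21.9% and 3.34%, so libraries of a single species spanned the gap between cattle and sheep.

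**Figure D2:**
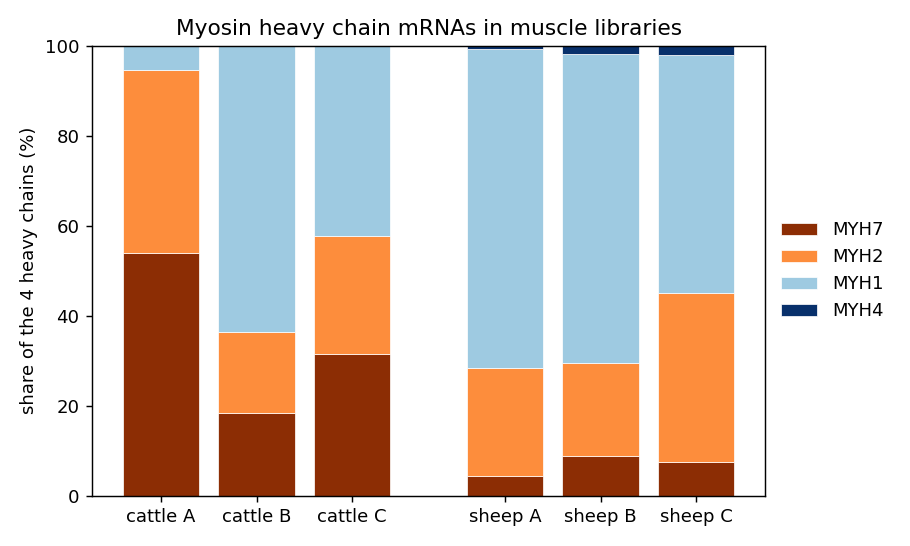
Share of each of 4 myosin heavy chain mRNAs, in percent of their sum in RPKM (vertical axis), in each muscle library (horizontal axis, cattle left, sheep right). MYH7 fills 18.3% to 53.9% of the cattle bars and 4.28% to 8.79% of the sheep bars, and MYH4 is visible in the sheep bars only, at 0.657% to 1.88%.

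MYH7 lies on chromosome 10, 21490410 to 21510517, in the cattle build ARS-UCD1.2. It measured 5685, 2302 and 2606 RPKM in cattle muscle, against 679, 872 and 784 RPKM in sheep muscle, 4.54-fold higher in cattle (log2 difference 2.18 ± 0.39, edgeR adjusted p = 0.0015). MYH2 measured 4307, 2281 and 2171 RPKM in cattle and 3845, 2054 and 3944 RPKM in sheep (log2 difference -0.17 ± 0.38, edgeR adjusted p = 0.73), and MYH1 558, 8009 and 3485 RPKM in cattle and 11241, 6810.3 and 5559 RPKM in sheep (log2 difference -0.97 ± 0.80, edgeR adjusted p = 0.33). Neither was called, and both groups overlapped. Without cattle muscle B the MYH1 difference was -1.96, so this value rests on single libraries. The fast glycolytic chain MYH4, on chromosome 19, 29448559 to 29476191, had 0.0382, 0.692 and 0.221 RPKM in cattle muscle, from 5, 117 and 34 reads, against 104, 184 and 197 RPKM in sheep muscle (log2 difference -8.95 ± 0.90, edgeR adjusted p = 0.00021). Goat muscle had 129, 127 and 21.4 RPKM, above every cattle library. The sarcomeric myosin genes are near-identical in parts of their sequence, and how reads with several placements were counted is not given in the sources used here, so single values of this family are uncertain.

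Other myosins of the family went in both directions. MYH6, the alpha chain known from heart and from slow fibres of some head muscles, measured 16.7, 8.16 and 3.73 RPKM in cattle muscle, against 0.186, 0.636 and 0.648 RPKM in sheep muscle (log2 difference 4.28 ± 0.69, edgeR adjusted p = 0.0017). It is a close copy of MYH7, whose level was far higher in each library. The embryonic MYH3 had 0.727, 0.568 and 0.169 RPKM in cattle and 1.35, 1.89 and 1.64 RPKM in sheep (log2 difference -1.74 ± 0.45, edgeR adjusted p = 0.01), and the perinatal MYH8 0.132, 0.113 and 0.106 RPKM in cattle and 2.82, 0.876 and 0.503 RPKM in sheep (log2 difference -3.57 ± 0.67, edgeR adjusted p = 0.0026). Both developmental chains were called higher in sheep.

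Slow fibre genes were mostly higher in cattle muscle. Of 12 tested members, 9 were higher in cattle and 0 in sheep, with a median log2 difference of 2.12, against -0.02 over all genes tested. DESeq2 and limma-voom gave the same counts, and 0 members had an unadjusted p below 0.05 toward sheep. The same held inside the Length window, where 4 of 5 were higher in cattle. Leaving out cattle muscle A, the library with the highest slow levels, left 6 members called higher in cattle and a median of 1.58. The mean log2 RPKM of the 12 genes was 10.93, 9.288 and 10.09 in cattle muscle, against 7.478, 8.486 and 8.395 in sheep muscle, so every cattle library lay above every sheep library.

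CSRP3, the muscle LIM protein that binds the Z-disc and is most abundant in slow fibres, had the largest difference of this list. It measured 8392, 4390.5 and 8870.2 RPKM in cattle muscle and 42.2, 211 and 358 RPKM in sheep muscle, 35.4-fold higher in cattle (log2 difference 5.15 ± 0.81, edgeR adjusted p = 0.0014). Its gene is on chromosome 29, 25744105 to 25764911. The sheep libraries differed among themselves, A being lowest. MYOZ2, which tethers the phosphatase calcineurin to the slow Z-disc, had 2890.4, 814 and 1710.4 RPKM in cattle and 133, 309 and 281 RPKM in sheep (log2 difference 2.90 ± 0.52, edgeR adjusted p = 0.0021). TNNC1, the slow calcium sensor of the thin filament, had 16262, 3966 and 9129.8 RPKM in cattle and 1128, 1727 and 1427 RPKM in sheep (log2 difference 2.78 ± 0.49, edgeR adjusted p = 0.0016), with a Length that differed 1.4 times. In all 3 genes the groups did not overlap, and cattle muscle B was the lowest cattle library.

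The mean level of fast fibre genes was lower in cattle, and few of them reached the call. Of 16 tested members, 0 were higher in cattle and 4 in sheep, with a median of -0.69, and 12 were not called. The differences were above 0 in 2 members and below 0 in 14. Inside the Length window, 0 of 10 were higher in cattle and 3 in sheep, with a median of -0.20. The mean log2 RPKM of the 16 genes was 8.354, 9.108 and 8.774 in cattle muscle, against 10.15, 9.745 and 9.694 in sheep muscle. Every cattle library thus lay below every sheep library in this mean. It weighs all members alike, so MYH4, MYH8 and MYH3, which were low in cattle, move it as much as the abundant genes. Whether the libraries stay apart without these 3 genes was not tested. Toward cattle, 0 had an unadjusted p below 0.05 in edgeR, and DESeq2 and limma-voom also called 0. The 4 were MYH4, MYH8 and MYH3, described above, and TNNI2, the inhibitory troponin of fast fibres, at 3410.4, 5827 and 5066 RPKM in cattle and 13369, 12484 and 12641 RPKM in sheep (log2 difference -1.43 ± 0.27, edgeR adjusted p = 0.0021; Length differed 1.6 times). The most abundant fast genes overlapped between the species. TNNC2, the fast calcium sensor, measured 15568, 29079 and 26584 RPKM in cattle and 27766, 26661 and 24866 RPKM in sheep (log2 difference -0.15 ± 0.30, edgeR adjusted p = 0.68). TNNT3, the fast troponin T, gave 0.01 ± 0.32, the calcium pump ATP2A1 -0.23 ± 0.27, and the fast actinin ACTN3 0.09 ± 0.35 (edgeR adjusted p = 0.99, 0.48 and 0.84). Cattle muscle A was the lowest cattle library in each of these genes.

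**Figure D3:**
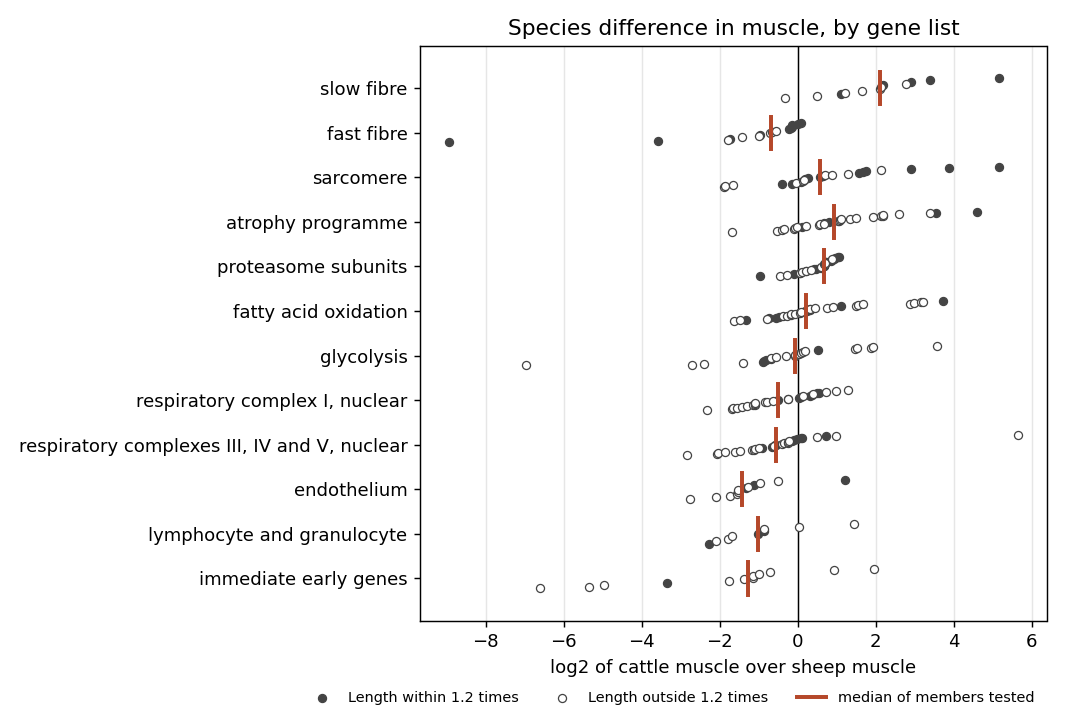
Log2 difference of cattle over sheep (horizontal axis) for each tested member of 12 gene lists (rows), with filled points for Length within 1.2 times, open points for other genes and a bar at the list's median. The slow fibre median is 2.12, the atrophy programme 0.92 and the endothelium -1.42.

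Structural proteins of the sarcomere leaned to cattle. Of 23 tested members, 8 were higher in cattle and 3 in sheep, with a median of 0.58, against 15.4% and 18.6% of all genes tested. Inside the Length window, 6 of the 13 were higher in cattle and 0 in sheep. CSRP3 counts in this list and in that of slow fibres, so the 2 lists are not independent. MYOM3, an M-band protein, measured 265, 156 and 151 RPKM in cattle and 7.54, 18.1 and 13.3 RPKM in sheep (log2 difference 3.88 ± 0.38, edgeR adjusted p = 0.0001). MYOT, the myotilin of the Z-disc, measured 5233, 4712 and 3818 RPKM in cattle and 1040.3, 1272 and 1760.3 RPKM in sheep (log2 difference 1.76 ± 0.28, edgeR adjusted p = 0.00088). Against them stood LMOD3, which starts the growth of thin filaments, at 179, 131 and 198 RPKM in cattle and 566, 716 and 567 RPKM in sheep (log2 difference -1.87 ± 0.21, edgeR adjusted p = 0.00014; Length differed 1.64 times). MYOZ3, the calsarcin of fast fibres, was also lower in cattle (-1.89 ± 0.30, edgeR adjusted p = 0.00096), but its Length differed 4.07 times and the call was lost without the length correction (-0.33).

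ANKRD2 and PDLIM3 belong to the same surroundings, the Z-disc and the spring region of titin. ANKRD2, an ankyrin repeat protein that rises when muscle is stretched in mice, lies on chromosome 26, 18762488 to 18771573. It measured 577, 542 and 967 RPKM in cattle muscle, against 20.6, 35.6 and 54.2 RPKM in sheep muscle, 18.9-fold higher in cattle (log2 difference 4.24 ± 0.41, edgeR adjusted p = 9.9e-05). PDLIM3, an actinin-binding LIM protein and one of the 12 most abundant genes of the window, measured 6378, 5644 and 5086 RPKM in cattle and 1482, 1837 and 2036 RPKM in sheep (log2 difference 1.68 ± 0.24, edgeR adjusted p = 0.00051). Goat muscle had 435, 259 and 145 RPKM of ANKRD2 and 1323, 1425 and 1617 RPKM of PDLIM3, between the cattle and sheep ranges for the first gene and near the sheep range for the second.

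Among genes known from muscle wasting, those called were higher in cattle. The list of the atrophy programme had 28 tested members, of which 13 were higher in cattle and 0 in sheep. Over all genes tested the shares were 15.4% and 18.6%. The list had a median of 0.92, and 15 members were not called. The differences were above 0 in 21 members and below 0 in 7, and inside the Length window 2 of 5 were higher in cattle and 0 in sheep. Toward sheep 1 member had an unadjusted p below 0.05, and 1 was called higher in sheep by limma-voom and without cattle muscle B. FOXO1, the transcription factor that drives many of the others when insulin signalling is low, measured 101, 81.3 and 74.3 RPKM in cattle and 7.58, 5.31 and 8.97 RPKM in sheep, 11.8-fold higher in cattle (log2 difference 3.56 ± 0.23, edgeR adjusted p = 1.3e-05; chromosome 12, 21900230 to 21991693). GADD45A, a stress protein that is induced in denervated muscle, measured 342, 417 and 390.4 RPKM in cattle and 26.5, 12.5 and 8.24 RPKM in sheep, 24.3-fold higher in cattle (log2 difference 4.61 ± 0.44, edgeR adjusted p = 0.00012; chromosome 3, 77648760 to 77651872). Both genes are inside the Length window.

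Several members of this list with unlike Lengths went the same way. FKBP5, a co-chaperone of the glucocorticoid receptor and one of its target genes, measured 282, 308 and 449 RPKM in cattle and 26.1, 30.9 and 42.8 RPKM in sheep (log2 difference 3.38 ± 0.27, edgeR adjusted p = 3.2e-05; Length differed 1.94 times). The deubiquitinase USP2 measured 204, 229.8 and 243 RPKM in cattle and 45.4, 55.7 and 53.7 RPKM in sheep (log2 difference 2.13 ± 0.15, edgeR adjusted p = 2.2e-05; 1.26 times), and BNIP3, a receptor that marks mitochondria for breakdown, 1009.5, 1397 and 1049.5 RPKM in cattle and 239.9, 276 and 248 RPKM in sheep (log2 difference 2.18 ± 0.18, edgeR adjusted p = 3.6e-05; 2.28 times). BNIP3 lost its call without the length correction (0.53). The 2 ubiquitin ligases most often used to gauge wasting were not called. FBXO32 measured 138, 246 and 280.4 RPKM in cattle and 63.4, 121 and 231 RPKM in sheep (log2 difference 0.68 ± 0.48, edgeR adjusted p = 0.26), and TRIM63 226, 173 and 379 RPKM in cattle and 98.3, 165 and 256 RPKM in sheep (log2 difference 0.58 ± 0.40, edgeR adjusted p = 0.24; 1.61 times). In both genes the groups overlapped. In 5 of the 28 members the muscle difference was above the brain difference by the call, as it was in 9.27% of all genes in that test. FOXO1, USP2 and GADD45A were among them, and GADD45A was also chosen by size with that call as a condition.

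Proteasome subunits lay slightly higher in cattle, below the size of a call. Of 29 tested members, 2 were higher in cattle and 0 in sheep, with a median of 0.66. In 20 of them the 3 cattle libraries all lay above the 3 sheep libraries. This held for 32.7% of all genes tested and for 39.7% of those in the Length window. Of the 29 members 17 lie in that window, with a median of 0.67, against 0.19 over all its genes. At an unadjusted p below 0.05 in edgeR, 20 were higher in cattle and 2 in sheep. The share of all genes at that level is not given here, so this count has no measure beside it. PSMC1, an ATPase of the regulatory particle, measured 141, 129 and 167 RPKM in cattle and 72.0, 67.7 and 69.1 RPKM in sheep (log2 difference 1.07 ± 0.14, edgeR adjusted p = 0.00033), and PSMD11, a lid subunit, 90.6, 98.1 and 110.2 RPKM in cattle and 49.9, 46.5 and 49.6 RPKM in sheep (log2 difference 1.03 ± 0.13, edgeR adjusted p = 0.00024). Both sat at the edge of the call, which they lost when scaled by library totals (0.96 and 0.92) or without cattle muscle C (0.96 and 0.96). PSMD11 also lost it without sheep muscle B (0.99), and without cattle muscle B 4 members were called higher in cattle.

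The genes with the largest differences toward cattle were in genes of unlike roles. They were taken from the 101 genes of the Length window with a symbol that were called in muscle, did not overlap between the species, had a called difference of the same sign beyond brain and a level of at least 32 length-corrected CPM (counts scaled to the library). SERPINB6, an intracellular protease inhibitor, measured 99.5, 68.6 and 97.3 RPKM in cattle and 0.306, 0.349 and 0.332 RPKM in sheep (log2 difference 8.06 ± 0.23, edgeR adjusted p = 2.3e-07). It belongs to a family of close copies, and brain differed in the same direction, at 36.2, 38.8 and 31.0 RPKM in cattle and 0.705, 1.021 and 2.2 RPKM in sheep. SLC16A6, a carrier of the monocarboxylate family, measured 151, 442 and 118 RPKM in cattle and 1.45, 1.26 and 1.47 RPKM in sheep (log2 difference 7.41 ± 0.63, edgeR adjusted p = 0.0001; chromosome 19, 61867803 to 61877805). Cattle muscle B was the highest library, and goat muscle had 0.954, 1.35 and 0.685 RPKM. P4HA3, a subunit of the enzyme that hydroxylates proline in collagen, measured 25.7, 32.3 and 36.6 RPKM in cattle and 0.266, 0.128 and 0.518 RPKM in sheep (log2 difference 6.70 ± 0.41, edgeR adjusted p = 1.5e-05; chromosome 15, 53640849 to 53681795). In brain P4HA3 did not differ by the call (0.60 ± 0.58).

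An enzyme and a carrier of energy metabolism were among them. UCP2, a carrier of the inner mitochondrial membrane, measured 59.2, 55.3 and 65.8 RPKM in cattle and 4.24, 4.3 and 5.01 RPKM in sheep (log2 difference 3.73 ± 0.14, edgeR adjusted p = 1.1e-06). ACOX2, which shortens branched acyl chains in peroxisomes, measured 93.7, 36.1 and 70.7 RPKM in cattle and 1.75, 3.34 and 4.27 RPKM in sheep (log2 difference 4.42 ± 0.47, edgeR adjusted p = 0.00027).

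The remaining genes of this group were GREB1, known as an oestrogen response gene, TTI2, part of a chaperone for large kinases, and IRAK2, a kinase below interleukin receptors. GREB1 measured 20.2, 23.8 and 40.7 RPKM in cattle and 1.13, 0.944 and 3.27 RPKM in sheep (log2 difference 3.99 ± 0.56, edgeR adjusted p = 0.00087). TTI2 measured 49.1, 59.0 and 56.7 RPKM in cattle and 4.06, 3.76 and 4.27 RPKM in sheep (log2 difference 3.77 ± 0.14, edgeR adjusted p = 9.0e-07), and IRAK2 27.8, 35.5 and 34.5 RPKM in cattle and 3.17, 2.39 and 1.83 RPKM in sheep (log2 difference 3.73 ± 0.22, edgeR adjusted p = 9.1e-06). The call beyond brain was lost under 12 of the alternatives run for GREB1 and 10 for UCP2.

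**Figure D4:**
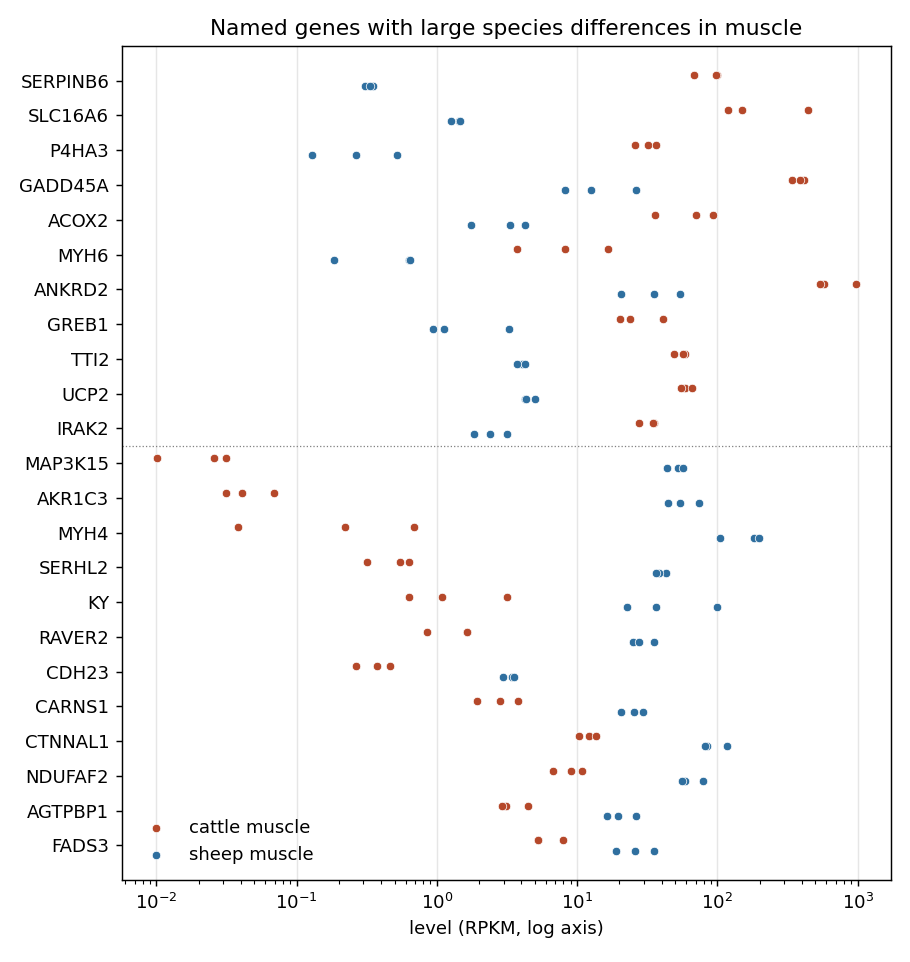
Level in each muscle library (horizontal axis, RPKM, logarithmic) of 23 genes named by size of difference, with cattle points above sheep points in each row; genes above the dotted line were higher in cattle and genes below it were higher in sheep. SLC16A6 spans 118 to 442 RPKM in cattle and 1.26 to 1.47 RPKM in sheep. Groups that do not overlap were a condition for the genes shown.

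On the sheep side 35 genes met the same rule, and several of the largest were almost without reads in cattle muscle. MAP3K15, an X-linked stress kinase, had 1, 4 and 3 reads in cattle muscle, against 52.3, 44.1 and 56.9 RPKM in sheep muscle (log2 difference -11.05 ± 0.27, edgeR adjusted p = 2.1e-07). AKR1C3, a ketosteroid reductase in humans and a member of a family of close copies, had 1, 1 and 2 reads in cattle, against 74.2, 54.2 and 44.7 RPKM in sheep (log2 difference -10.16 ± 0.36, edgeR adjusted p = 8.0e-07), and goat muscle had 18.6, 14.1 and 28.8 RPKM. The size of such fitted differences hangs on a handful of reads. AKR1C3 was also near 0 in brain of both species, at 0, 0.023 and 0.021 RPKM in cattle and 0, 0 and 0 RPKM in sheep. SERHL2, a serine hydrolase-like protein, had 0.634, 0.548 and 0.317 RPKM in cattle and 43.2, 38.2 and 36.8 RPKM in sheep (log2 difference -6.30 ± 0.24, edgeR adjusted p = 1.1e-06), and its call beyond brain was lost under 12 of the alternatives run. MAP3K15 and SERHL2 were also called higher in sheep brain, at -5.88 and -4.34.

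KY and CARNS1 are genes of muscle itself. KY, a protein of the Z-disc whose loss causes spinal curvature in the kyphoscoliotic mouse, measured 1.09, 3.16 and 0.629 RPKM in cattle muscle and 99.7, 36.6 and 22.5 RPKM in sheep muscle, 32.1-fold lower in cattle (log2 difference -5.0 ± 0.80, edgeR adjusted p = 0.0017; chromosome 1, 134699565 to 134742497). CARNS1, the synthase of the muscle buffer carnosine, measured 1.95, 2.83 and 3.81 RPKM in cattle and 29.4, 20.6 and 25.4 RPKM in sheep, 8.75-fold lower in cattle (log2 difference -3.13 ± 0.26, edgeR adjusted p = 4.5e-05; chromosome 29, 45310479 to 45318348). In brain the cattle level was the higher one in each (2.43, called, and 0.88, not called). NDUFAF2, which helps to build respiratory complex I, measured 6.78, 8.99 and 10.8 RPKM in cattle and 79.0, 58.4 and 56.1 RPKM in sheep (log2 difference -2.86 ± 0.22, edgeR adjusted p = 3.0e-05), while goat muscle had 64.2, 59.0 and 78.5 RPKM and brain did not differ by the call (0.28).

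The rest of this group have no shared role. RAVER2, an RNA-binding partner of the splicing repressor PTB, measured 1.64, 1.64 and 0.845 RPKM in cattle and 35.2, 24.9 and 27.7 RPKM in sheep (log2 difference -4.41 ± 0.28, edgeR adjusted p = 1.6e-05). CTNNAL1, a relative of alpha-catenin, measured 12.3, 10.4 and 13.6 RPKM in cattle and 117, 84.3 and 81.8 RPKM in sheep (log2 difference -2.97 ± 0.19, edgeR adjusted p = 1.3e-05). AGTPBP1, which trims glutamate chains from tubulin, measured 3.09, 4.47 and 2.91 RPKM in cattle and 26.5, 19.5 and 16.4 RPKM in sheep (log2 difference -2.57 ± 0.24, edgeR adjusted p = 6.6e-05). FADS3, of the fatty acid desaturase cluster, measured 5.24, 7.9 and 5.28 RPKM in cattle and 35.6, 26.1 and 19.1 RPKM in sheep (log2 difference -2.13 ± 0.27, edgeR adjusted p = 0.00029). CDH23, a cadherin best known from the hair cells of the ear, measured 0.267, 0.376 and 0.466 RPKM in cattle and 3.46, 2.98 and 3.57 RPKM in sheep (log2 difference -3.17 ± 0.22, edgeR adjusted p = 1.7e-05).

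Some pairs had large differences of the same sign in both tissues. H2BC18, a histone with many close copies, had 0, 3 and 1 reads in cattle muscle, against 291, 222 and 291 RPKM in sheep muscle (log2 difference -10.85 ± 0.36, edgeR adjusted p = 5.0e-07), and gave -10.03 ± 0.88 in brain (edgeR adjusted p = 3.5e-05). MRPL24, a protein of the mitochondrial ribosome, had 3, 0 and 4 reads in cattle muscle, against 41.3, 36.4 and 44.2 RPKM in sheep muscle (log2 difference -8.74 ± 0.41, edgeR adjusted p = 3.7e-06), and gave -9.55 ± 0.92 in brain (edgeR adjusted p = 5.9e-05). Outside the Length window the clearest case was TPI1, the triose phosphate isomerase of glycolysis, which every cell uses. It measured 11.98, 20.7 and 20.9 RPKM in cattle muscle and 2604, 2086 and 2055 RPKM in sheep muscle (log2 difference -6.97 ± 0.32, edgeR adjusted p = 2.9e-06), and 4.64, 4.76 and 4.66 RPKM in cattle brain and 347, 367 and 921 RPKM in sheep brain. Its 5 inner exon blocks have equal lengths in the 2 species, of 88, 86, 133, 85 and 124 bases, and its Length differed 1.73 times. Where the cattle reads of such genes were placed was not tested.

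Glycolysis and fuel handling had no common direction. Of 23 glycolysis genes, 5 were higher in cattle and 4 in sheep, all of them outside the Length window, with a median of -0.06. These counts are near the shares of all genes tested, 15.4% and 18.6%. Without cattle muscle B, 7 were called higher in sheep. PFKFB3, which makes the activator of phosphofructokinase, measured 285, 532 and 398 RPKM in cattle and 15.9, 39.9 and 47.2 RPKM in sheep (log2 difference 3.56 ± 0.44, edgeR adjusted p = 0.0003; Length differed 1.52 times), while its relative PFKFB1 measured 12.9, 15.4 and 13.5 RPKM in cattle and 34.6, 35.1 and 41.7 RPKM in sheep (log2 difference -1.41 ± 0.13, edgeR adjusted p = 6.5e-05; 1.28 times). The hexokinases parted in the same way. HK2, the main form of muscle, measured 17.9, 33.4 and 22.1 RPKM in cattle and 7.92, 6.93 and 4.43 RPKM in sheep (log2 difference 1.93 ± 0.28, edgeR adjusted p = 0.0007; 1.24 times), and HK1, the form of most other tissues, measured 3.72, 3.16 and 3.25 RPKM in cattle and 24.8, 20.5 and 21.3 RPKM in sheep (log2 difference -2.72 ± 0.14, edgeR adjusted p = 4.4e-06; 1.86 times). In the glycogen list 1 of 17 was higher in cattle and 2 in sheep, or 1 in sheep without sheep muscle A. PYGM, the muscle glycogen phosphorylase, measured 2812, 4825 and 3739.9 RPKM in cattle and 4868, 3427 and 3774 RPKM in sheep (log2 difference -0.09 ± 0.29, edgeR adjusted p = 0.82).

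Genes of fatty acid oxidation were called in both directions. Of 32 tested members, 9 were higher in cattle and 3 in sheep, with a median of 0.20, against 15.4% and 18.6% of all genes tested. Inside the Length window, 2 of 10 were higher in cattle and 1 in sheep, with a median of 0.11. ACACB, the mitochondrial acetyl-CoA carboxylase whose product holds back the entry of fatty acids, measured 177, 182 and 202 RPKM in cattle and 22.9, 17.5 and 19.7 RPKM in sheep (log2 difference 3.22 ± 0.19, edgeR adjusted p = 1.0e-05; Length differed 1.69 times). PPARD, a nuclear receptor that turns on oxidation genes, measured 33.4, 38.0 and 38.1 RPKM in cattle and 12.2, 10.8 and 11.1 RPKM in sheep (log2 difference 1.68 ± 0.12, edgeR adjusted p = 2.1e-05; 2.22 times). Lower in cattle were ACSS2, which activates acetate, a main fuel of ruminants, at 15.9, 12.1 and 14.5 RPKM in cattle and 48.6, 42.3 and 42.0 RPKM in sheep (log2 difference -1.64 ± 0.14, edgeR adjusted p = 4.3e-05; 1.21 times), and ECI1, an isomerase of unsaturated chains (log2 difference -1.47 ± 0.16, edgeR adjusted p = 0.00014; 1.85 times). GLUL, which makes glutamine in muscle, was 5.03-fold higher in cattle (log2 difference 2.33 ± 0.34, edgeR adjusted p = 0.00058; 2.28 times), and SLC3A2, a subunit of amino acid exchangers, measured 80.3, 117 and 156 RPKM in cattle and 27.9, 23.7 and 24.1 RPKM in sheep inside the window (log2 difference 2.22 ± 0.24, edgeR adjusted p = 0.00012).

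Most tested genes of lipid synthesis had unlike Lengths, and so did most of those called. In the list of sterol and fatty acid synthesis 2 of 25 tested members were higher in cattle and 9 in sheep, with a median of -0.58. Inside the Length window, 1 of 5 was higher in cattle and 2 in sheep, and the median there was of the other sign, at 0.39. Outside it, 1 of 20 was higher in cattle and 7 in sheep. FDFT1, the squalene synthase, measured 27.3, 31.1 and 23.6 RPKM in cattle and 122, 113 and 96.1 RPKM in sheep (log2 difference -2.01 ± 0.16, edgeR adjusted p = 2.9e-05; Length differed 1.24 times). FADS2 and FADS1, the desaturases of long-chain fatty acids, measured 1.64 to 2.38 and 0.485 to 0.836 RPKM in cattle, against 12.1 to 17.9 and 6.72 to 11.53 RPKM in sheep (-2.95 ± 0.22 and -3.86 ± 0.32; edgeR adjusted p = 2.3e-05 and 3.8e-05; 1.6 and 3.63 times). In brain 6 of 25 were higher in cattle and 0 in sheep, against 7.63% and 15.7% of all genes tested there. In 15 the muscle difference was below the brain difference by the call, a share to be read against 7.85% of all genes in that test. SREBF1, which encodes a main activator of the pathway, was an exception, at 121, 53.8 and 94.1 RPKM in cattle and 35.8, 39.99 and 36.3 RPKM in sheep (log2 difference 1.26 ± 0.27, edgeR adjusted p = 0.0042). It lost the call without cattle muscle A (0.99), where 0 members of the list were called higher in cattle.

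The calls among nuclear genes of the respiratory chain all lay outside the Length window. Of 56 tested subunits of complexes I, III, IV and V, 2 were higher in cattle and 19 in sheep. All 21 lie outside the Length window, where 38 were tested with a median of -1.04. Over all genes, 14.1% to 35.0% were called higher in sheep in the bins of Length outside the window. What part the Length has in these calls was not tested. Inside the window 0 of 18 were called in either direction by edgeR, with a median of -0.000598; 2 leaned to cattle and 4 to sheep at an unadjusted p below 0.05, and DESeq2 and limma-voom also called 0. In brain 18 of the 38 outside the window were called higher in sheep, with a median of -1.017, against 1 of the 18 inside it. Over all genes tested in brain, 15.7% were higher in sheep, and 12.8% inside the window. In all, 14 of the 19 genes higher in sheep muscle were called higher in sheep brain too, against 35.1% of all genes higher in sheep muscle. NDUFS5, an accessory subunit of complex I, measured 64.4, 46.5 and 64.0 RPKM in cattle muscle and 321, 261 and 295 RPKM in sheep muscle (log2 difference -2.33 ± 0.17, edgeR adjusted p = 2.2e-05; Length differed 2.88 times) and gave -3.17 in brain. Without cattle muscle B, 6 subunits of complex I were called higher in sheep, against 10 with it. ATP5ME, a subunit of the ATP synthase, gave -2.83 ± 0.22 in muscle and -3.28 in brain (4.28 times; edgeR adjusted p = 3.0e-05 and 0.0002). ATP5MC1, a proton-carrying subunit with close copies, ran the other way, at 5.65 ± 0.55 in muscle and 5.67 in brain (1.87 times; edgeR adjusted p = 0.00019 and 3.9e-05).

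Cytosolic ribosomal proteins, which every cell needs in quantity, had most of their calls outside the Length window. Of 50 tested members 4 were higher in cattle and 6 in sheep. All 6 were higher in sheep brain as well, against 35.1% of all genes higher in sheep muscle. Inside the window 1 of 23 was higher in cattle and 0 in sheep. RPS29, a small subunit protein, gave -3.07 ± 0.20 in muscle and -3.77 ± 0.45 in brain, with a Length that differed 3.81 times (edgeR adjusted p = 1.4e-05 and 0.00021). Ribosomal protein genes have many processed copies, so the split of their reads is uncertain. The list's median was -0.01 in muscle and -1.39 in brain. In brain 36 of the 50 were called higher in sheep, against 15.7% of all genes tested there. In 22 of the 50 the muscle difference was above the brain difference by the call, against 9.27% of all genes in that test. RPLP1, one of the 12 most abundant genes of the window, measured 6096, 4825 and 6338 RPKM in cattle and 3564, 3128 and 2916 RPKM in sheep and missed the size of a call (log2 difference 0.84 ± 0.20, edgeR adjusted p = 0.0065).

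Signals that govern muscle mass differed in single genes. In the growth axis 2 of 26 tested members were higher in cattle and 3 in sheep, with a median of 0.07; without cattle muscle C or sheep muscle B, 1 was called higher in sheep. GDF11, a close relative of the growth inhibitor myostatin, measured 20.5, 10.2 and 11.7 RPKM in cattle muscle and 1.15, 1.17 and 1.34 RPKM in sheep muscle (log2 difference 3.53 ± 0.30, edgeR adjusted p = 4.3e-05; chromosome 5, 57506100 to 57512983), and in brain 13.9, 13.1 and 7.71 RPKM in cattle and 15.6, 13.8 and 5.9 RPKM in sheep. AKT1, a kinase below the insulin receptor, measured 64.2, 53.8 and 65.7 RPKM in cattle and 25.7, 24.1 and 23.6 RPKM in sheep (log2 difference 1.32 ± 0.12, edgeR adjusted p = 6.3e-05), and lost its call without the length correction (0.72). IGFBP5, a binding protein of insulin-like growth factors, measured 14.4, 16.2 and 5.75 RPKM in cattle and 210.1, 91.4 and 53.5 RPKM in sheep (log2 difference -3.29 ± 0.61, edgeR adjusted p = 0.003; Length differed 1.98 times).

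Subunits of the acetylcholine receptor, through which the nerve drives the fibre, were split. CHRNA1, the subunit that binds acetylcholine, measured 69.4, 36.6 and 38.6 RPKM in cattle and 4.2, 2.18 and 2.64 RPKM in sheep (log2 difference 4.0 ± 0.35, edgeR adjusted p = 7.7e-05; Length differed 2.71 times). CHRNE, the subunit of adult junctions, measured 6.02, 5.68 and 19.4 RPKM in cattle and 98.8, 151 and 223 RPKM in sheep (log2 difference -3.92 ± 0.59, edgeR adjusted p = 0.0012; 1.21 times), and CHRND, the delta subunit, 1.03, 2.14 and 1.56 RPKM in cattle and 16.3, 6.82 and 6.87 RPKM in sheep (log2 difference -2.66 ± 0.42, edgeR adjusted p = 0.001). LRP4, the receptor by which the nerve's agrin gathers these receptors, measured 13.9, 20.4 and 14.3 RPKM in cattle and 5.0, 4.31 and 2.77 RPKM in sheep (log2 difference 2.01 ± 0.25, edgeR adjusted p = 0.00026). Of the 9 tested junction genes 3 were higher in cattle and 3 in sheep, against 15.4% and 18.6% of all genes tested.

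Regulators of muscle identity were mostly not called. Of 14 tested, 3 were higher in cattle and 1 in sheep, or 2 in sheep without cattle muscle C, sheep muscle A or sheep muscle B. All genes tested gave 15.4% and 18.6%. SOX6, which represses slow genes in mice, measured 3.78, 9.41 and 4.73 RPKM in cattle and 21.3, 17.2 and 16.2 RPKM in sheep (log2 difference -1.61 ± 0.33, edgeR adjusted p = 0.0038; Length differed 1.65 times). PROX1, which favours slow genes in mice and is also a marker of lymph vessels, measured 8.0, 4.76 and 3.77 RPKM in cattle and 1.59, 3.11 and 2.43 RPKM in sheep (log2 difference 1.21 ± 0.33, edgeR adjusted p = 0.013). Its call rested on single libraries, with 0.84 without cattle muscle A and 0.99 without sheep muscle A. TBX15, a regulator of glycolytic fibres in mice, measured 100.1, 126 and 84.6 RPKM in cattle and 34.7, 30.6 and 31.8 RPKM in sheep (log2 difference 1.68 ± 0.17, edgeR adjusted p = 9.2e-05; 2.03 times). At the membrane, 0 of 11 genes of the dystrophin complex were higher in cattle and 3 in sheep, to be read against the same shares. Toward cattle 3 had an unadjusted p below 0.05, and without cattle muscle A 1 was called. UTRN, the homologue of dystrophin, measured 3.29, 3.73 and 2.74 RPKM in cattle and 9.51, 9.4 and 11.2 RPKM in sheep (log2 difference -1.62 ± 0.15, edgeR adjusted p = 5.5e-05), and NOS1, the nitric oxide synthase anchored to the complex, 1.03, 2.59 and 2.29 RPKM in cattle and 10.4, 6.36 and 15.2 RPKM in sheep (log2 difference -2.42 ± 0.42, edgeR adjusted p = 0.0021).

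Other cell types also left their mark, and in bulk RNA fewer cells of a type and less RNA per cell cannot be told apart. Most endothelial markers were lower in cattle muscle: 1 of 12 tested was higher in cattle and 9 in sheep, with a median of -1.42. The shares of all genes tested were 15.4% and 18.6%. Inside the Length window, 1 of 3 was higher in cattle and 2 in sheep. Their levels summed to 180 to 194 RPKM in cattle and 487 to 583 RPKM in sheep. ESAM, an adhesion protein of endothelial junctions, measured 12.02, 12.1 and 13.1 RPKM in cattle and 73.2, 99.8 and 81.1 RPKM in sheep (log2 difference -2.77 ± 0.15, edgeR adjusted p = 5.8e-06; Length differed 1.45 times). KDR, the main receptor of vascular endothelial growth factor, measured 4.38, 5.93 and 4.51 RPKM in cattle and 22.2, 23.2 and 17.7 RPKM in sheep (log2 difference -2.09 ± 0.17, edgeR adjusted p = 3.4e-05; 1.45 times). CDH5, the cadherin of vessels, gave -1.55 ± 0.12 in muscle (edgeR adjusted p = 3.3e-05) and 0.47, not called, in brain, with a Length that differed 1.76 times. PROX1, described above, was the member that was higher in cattle. Of the 9, 3 were called higher in sheep brain as well, near the 35.1% of all genes higher in sheep muscle.

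Immune markers differed less evenly. Markers of lymphocytes and granulocytes summed to 3.31 to 7.95 RPKM in cattle and 12.1 to 15.4 RPKM in sheep. In this list 1 of 9 tested was higher in cattle and 5 in sheep, against 15.4% and 18.6% of all genes tested. Without cattle muscle A or sheep muscle A, 3 were higher in sheep. CD3G, a subunit of the T cell receptor complex, had 0.215, 0.999 and 0.671 RPKM in cattle and 2.55, 3.65 and 3.23 RPKM in sheep (log2 difference -2.28 ± 0.48, edgeR adjusted p = 0.0034). The macrophage receptor CD163 went against this, with 7.04, 9.82 and 7.85 RPKM in cattle and 0.59, 0.647 and 1.053 RPKM in sheep (log2 difference 3.43 ± 0.26, edgeR adjusted p = 2.7e-05), while the macrophage list as a whole summed to 33.7 to 62.6 RPKM in cattle and 35.4 to 43.0 RPKM in sheep. Fat cell markers summed to 364 to 626 RPKM in cattle and 247 to 413 RPKM in sheep, with 4 of 11 higher in cattle and 1 in sheep, against 15.4% and 18.6% of all genes tested. The 4 lie outside the Length window, where Lengths differ, and inside it 0 of 3 were higher in cattle and 1 in sheep. LIPE, the hormone-sensitive lipase, measured 35.9, 26.3 and 45.6 RPKM in cattle and 6.48, 8.8 and 4.36 RPKM in sheep (log2 difference 2.46 ± 0.29, edgeR adjusted p = 0.00025; Length differed 1.38 times). Markers of nerve and Schwann cells summed to 69.0 to 77.2 RPKM in cattle and 63.7 to 105 RPKM in sheep. No marker of these lists that was paired stood at 0 in every library of a species. The part of these cells in the fibre and metabolic genes above was not tested.

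Immediate early genes, which respond within minutes to nerve activity, stress or handling of tissue, were lower in cattle. Of 12 tested members 1 was higher in cattle and 8 in sheep, against 15.4% and 18.6% of all genes tested. The median was -1.27, but 11 of the 12 lie outside the Length window. NR4A2, a nuclear receptor, measured 1.92, 1.23 and 1.1 RPKM in cattle and 64.1, 72.6 and 37.0 RPKM in sheep (log2 difference -5.36 ± 0.34, edgeR adjusted p = 1.8e-05; Length differed 1.42 times). EGR2, a zinc finger factor and the member inside the window, measured 0.738, 0.761 and 0.654 RPKM in cattle and 10.8, 6.46 and 4.67 RPKM in sheep (log2 difference -3.35 ± 0.35, edgeR adjusted p = 9.9e-05). Goat muscle stood near cattle in both, with 1.07, 2.71 and 1.022 RPKM of NR4A2 and 0.76, 1.16 and 0.611 RPKM of EGR2. FOSL2, a partner of the Jun proteins, was the member that was higher in cattle (log2 difference 1.95 ± 0.20, edgeR adjusted p = 8.8e-05; 3.02 times). The time from death to freezing is not given in the sources used here.

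A direct test asked in which genes the signed difference of cattle over sheep was not the same in muscle and in brain. The 12 libraries of both tissues were in one fit. A gene can be called here through a difference in brain, without a call in muscle. Of 11281 genes, 1046 (9.27%) had a muscle difference above the brain difference and 886 (7.85%) had one below it. Of the 1547 genes higher in cattle muscle with a value in brain, 320 (20.7%) were called higher in cattle brain too and 571 (36.9%) differed beyond brain. Of the 1871 genes higher in sheep muscle with a value in brain, 657 (35.1%) were called higher in sheep brain too and 596 (31.9%) differed beyond brain. In brain alone, 7.63% of genes were higher in cattle and 15.7% in sheep, and inside the Length window 8.17% and 12.8%. Beyond brain, the window gave 409 genes (9.82%) above and 276 (6.63%) below. Without sheep brain C 1386 genes were above and 1560 below, and without cattle brain A 567 and 557.

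Genes named by size were chosen with this test among the conditions, so their values beyond brain are a description. GADD45A and ANKRD2 gave -0.12 and -0.17 in brain, neither called, and differences beyond brain of 4.66 ± 0.52 and 4.34 ± 0.61. P4HA3 gave 6.03 ± 0.89 and KY -7.49 ± 1.07 beyond brain. For MYH4 the value of -15.36 ± 1.30 adds a brain difference of the opposite sign, from 0.657, 0.406 and 0.32 RPKM in cattle brain and 0.00798, 0.00345 and 0.00416 RPKM in sheep brain, levels at which a few reads decide. Of the slow fibre genes named above inside the Length window, MYH7, CSRP3 and MYOZ2 did not differ beyond brain by the call. They gave -0.03 ± 0.67, 3.20 ± 1.48 and -0.98 ± 1.04 (edgeR adjusted p = 0.99, 0.16 and 0.55). In the whole slow fibre list 3 of 12 members had a muscle difference above the brain difference, against 9.27% of all genes. Of the 9 members higher in cattle muscle, 2 were also called beyond brain. MYH7 measured 2.81, 3.48 and 3.87 RPKM in cattle brain and 0.525, 0.36 and 1.43 RPKM in sheep brain.

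**Figure D5:**
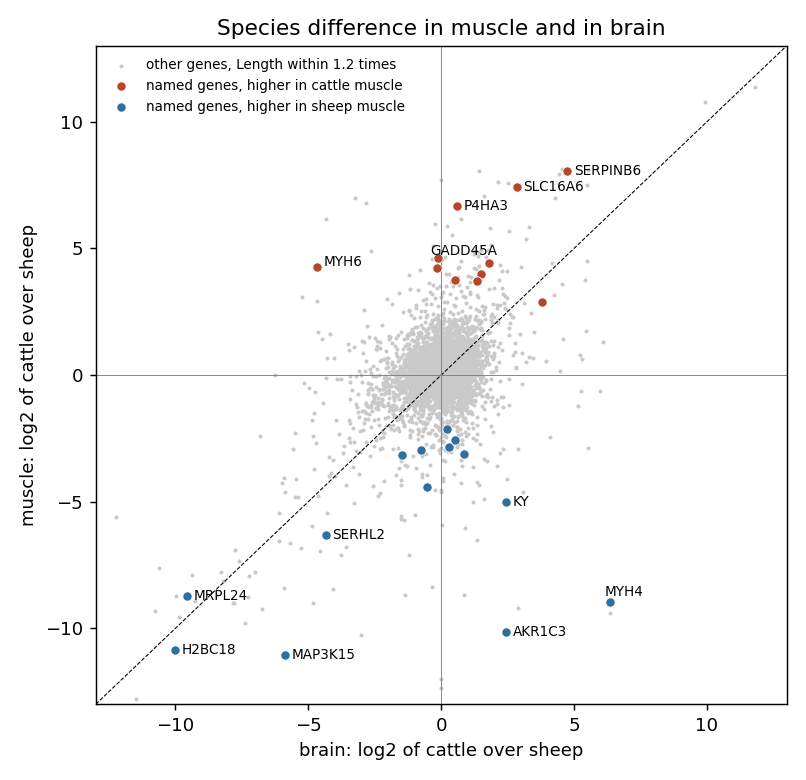
Log2 difference of cattle over sheep in muscle (vertical axis) against brain (horizontal axis) for genes with Length within 1.2 times, with a dashed line of equality and the named genes in colour. H2BC18 and MRPL24 lie near the line at -10.85 and -8.74 in muscle, and GADD45A lies near 0 in brain and at 4.61 in muscle.

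The mitochondrial genome was left out of the tests. Its 13 paired genes took 10.3%, 9.68% and 9.34% of all counts in cattle muscle A, B and C and 2.36%, 2.76% and 2.49% in sheep muscle A, B and C. The sheep counts were uneven along the genome. COX1, a subunit of complex IV, had 1428346 to 1663110 reads in cattle and 594870 to 728945 reads in sheep, whereas ND5, a subunit of complex I, had 199004 to 229841 reads in cattle and 196 to 411 reads in sheep. CYTB, of complex III, had 319421 to 425454 reads in cattle and 102 to 197540 reads in sheep. Whether the alignment or the gene models of sheep bear on these counts was not tested.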

How the data were processed

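The deposited files hold raw read counts per gene, made by the authors for each library on the gene models of its own species, with the exons and the Length of each gene. Per the submitters' processing notes the tools were Trimmomatic 0.39, STAR 2.7.6 and featureCounts, and the build named is ARS-UCD1.2. The sheep build, the strand setting and the treatment of reads with several placements have no entry in the labels or notes used here. Per the labels' protocols RNA was taken up in TRIzol and selected on oligo(dT) beads.

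Genes were paired by exon lengths and neighbouring pairs. Of the pairs kept, 8833 came from the first pass, 3086 from the second and 1610 from the third. Of 989 first-pass pairs held out, the second pass found 952 again, all with the same partner. The third pass found 945, of which 940 (99.5%) had the same partner. The error among pairs that only the later passes made was not measured. MYH4, MYH6, MYOZ2, SERPINB6, GADD45A, NDUFAF2, AKR1C3, H2BC18, AGTPBP1 and FADS3 were among the genes not paired in the first pass. Counts were tested with edgeR 4.0.16 (R 4.3.3), quasi-likelihood, TMM scaling and the Length as an offset, in 6 muscle libraries, and in 12 libraries for the difference from brain. Low counts were removed with edgeR's filterByExpr. RPKM were computed here. The fits were tested on simulated data. Genes named are the 12 per direction with the largest called difference inside the Length window, apart between species, at 32 length-corrected CPM or more and called beyond brain, the 12 most abundant, up to 4 called members per list with up to 2 against its median, and up to 5 per direction called in both tissues. FBXO32 and TRIM63 are named as members that were not called. A gene that met the rule is not reported here. Members and lists were chosen with earlier results of these data known. Deviations of same-lettered cattle and sheep muscle correlated by -0.0134, 0.142 and 0.09. Between muscle and brain, same-lettered deviations correlated by -0.0246, 0.0128 and -0.0494 in cattle and 0.0429, 0.04 and 0.0444 in sheep. Unlike letters gave -0.0768 to 0.077 in cattle and -0.0418 to 0.0052 in sheep. Such values cannot decide whether a letter stands for the same animal in both tissues, and the main fits used no letter block. Alternatives were other scalings, filters, Length rules, DESeq2 1.42.0, limma 3.58.1 (voom), a block for the letter, and each library left out.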

Additional observations from a re-analysis of the deposited data

Results flagged for a closer look

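Of the 93 genes named, 48 had a species difference that was not of the same size in muscle and in brain by edgeR's quasi-likelihood test of the difference itself, with Benjamini-Hochberg adjustment over 11281 genes. Values here are the log2 difference in muscle minus that in brain; 22 are above 0 and 26 below, from 3 libraries in each of 4 groups. Of the named genes 23 were chosen with this test among the conditions, so the number called is no result.

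Above 0, among genes of fibres and wasting, were MYH6 (8.88), GADD45A (4.66), ANKRD2 (4.34), FOXO1 (2.80), USP2 (1.92), PSMC1 (1.94) and TBX15 (2.10). MYH6 had opposite calls in the tissues, at 4.28 in muscle and -4.67 in brain, where cattle had 0.108, 0.109 and 0.14 RPKM and sheep 1.92, 2.53 and 4.68 RPKM. Signalling genes above 0 were GDF11 (3.49), AKT1 (1.38), IRAK2 (2.31) and GREB1 (2.42). Enzymes, carriers and others were P4HA3 (6.03), SLC16A6 (4.51), PFKFB3 (3.44), SERPINB6 (3.24), TTI2 (3.18), LIPE (2.56), ACOX2 (2.53), SLC3A2 (2.39), UCP2 (2.32), PPARD (2.07) and RPLP1 (1.61). SERPINB6, SLC16A6, ACOX2 and IRAK2 were also called higher in cattle brain, at 4.75, 2.85, 1.81 and 1.36.

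Below 0, among genes of the fibre, were MYH4 (-15.36), KY (-7.49), MYH8 (-4.41), MYOZ3 (-4.19), CARNS1 (-4.07), MYH3 (-3.44), LMOD3 (-3.31) and CHRNE (-3.11). LMOD3 was lower in cattle muscle (-1.87) and higher in cattle brain (1.38), each by the call. Lipid and sugar genes below 0 were FADS1 (-4.14), FADS2 (-3.80), FADS3 (-2.41), FDFT1 (-2.69), HK1 (-2.54) and ACSS2 (-1.19). FADS1, FADS2 and FDFT1 had brain differences of 0.21, 0.79 and 0.61, none called.

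The others below 0 were AKR1C3 (-12.70), MAP3K15 (-5.25), NR4A2 (-5.24), IGFBP5 (-4.24), RAVER2 (-3.93), EGR2 (-3.47), NDUFAF2 (-3.21), AGTPBP1 (-3.14), CTNNAL1 (-2.28), SERHL2 (-2.03), KDR (-2.01) and CDH23 (-1.75). The value of AKR1C3 rests on a gene near 0 in brain of both species, that of MAP3K15 on a few reads in cattle muscle, and that of MYH4 on levels near 0 in sheep brain.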

How the results depend on the processing

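The counts in muscle moved little with scaling, filter or tool. Leaving out 1 muscle library gave 1491 to 1599 genes higher in cattle and 1760 to 1949 higher in sheep, and 654 to 704 and 476 to 563 inside the Length window. Without the length correction the window gave 407 higher in cattle and 798 higher in sheep, with 5 of 3422 calls opposite, and fitting only the window gave 526 and 652. With all raw pairs, an alternative chosen after seeing the data, 2017 genes were higher in cattle and 2424 in sheep. The difference beyond brain was less steady: leaving out 1 library gave 567 to 1386 genes above and 557 to 1560 below, and 216 to 512 and 165 to 513 inside the window. The low ends came without cattle brain A, except 165, which came without cattle muscle C, and the high ends without sheep brain C. The cause was not tested.

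The letter as a replicate block gave 1522 genes higher in cattle and 1882 in sheep, and 658 and 521 inside the window. For the difference beyond brain, a replicate block of the letter within species gave 533 above and 592 below, and 203 and 173 inside the window. The main fit had given 1046 above and 886 below, and 409 and 276 inside the window. Whether brain and muscle of a letter come from the same animal is not given, so which fit is right was not tested. The calls beyond brain are thus less firm than the counts of the main fit. Of 187 genes that met the naming rule, more than the text names, no called one changed direction under the alternatives run for single genes; 40 lost their call without the length correction, 5 with library totals alone, 2 with DESeq2 and 8 to 14 on leaving out 1 library. With 3 libraries a group, small differences at low counts were not detectable.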
